A study of Oryzias latipes with 4 samples.

Results

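The genes aldoc and cnp were followed here in ribosome footprints and in RNA of the medaka brain. Each was taken as 1 transcript model of a deposited table of 93896 models, MEDAKA076122 for aldoc and MEDAKA012806 for cnp, 2 models in all. They were chosen by their identifiers, and not by a threshold on a measured value. Earlier results of these data were known at that choice, so the p-values below are no independent test of these 2 models. The tissue was the ventral part of the telencephalon together with the hypothalamus and the pituitary of female medaka (Oryzias latipes), a small freshwater fish, and no allele, transgene or drug is named in the labels. All fish had been kept in the condition labelled SD and were collected 16 h after transfer to the one labelled LD, so the comparison is between assays, with 2 LD Ribo-seq and 2 LD RNA-seq libraries. Strain, age and the number of fish per library are not given in the sources used, nor is it said that replicates came from separate fish. The p-values below then measure only the spread between these libraries, which may be technical.

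aldoc encodes aldolase C, the brain form of the glycolytic enzyme that splits fructose bisphosphate into a pair of triose phosphates. In the vertebrate brain it is a widely used marker of astrocytes and of radial glia, the glial cells that line the ventricles and remain abundant in adult fish, and it is also made by some neurons, such as cerebellar Purkinje cells. cnp encodes a cyclic nucleotide phosphodiesterase that in mammals is abundant in oligodendrocytes, where it lies in the uncompacted parts of the myelin sheath. In Ribo-seq the pieces of mRNA that a ribosome covers are sequenced after the rest has been digested, and footprints per RNA give a relative measure of how many ribosomes a transcript carries. Since the tissue was measured in bulk, fewer cells of a type and less RNA per cell cannot be told apart.

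The aldoc model spanned chromosome 14 from 12616621 to 12623131 and had a length of 2513 nt, against a span of 6511 bases, and 2 other models overlapped it. The cnp model spanned chromosome 8 from 5978493 to 5982905, had a length of 2227 nt in a span of 4413 bases, and overlapped 0 other models. Names rest on position: the models covered 58.6% of the RefSeq gene aldoc and 100% of the RefSeq gene cnp. The aldoc model thus leaves part of the annotated gene uncovered. In the RefSeq gene table, cnp has klhl11 on one side, with LOC101170190 between them, and ttc25, dnajc7 and nkiras2 on the other. The 4 genes with a symbol also lie near CNP in the human genome, but their order there was not compared. The same letters name C-type natriuretic peptide genes in medaka, which the table lists as cnp-1 and cnp-3 on chromosomes 16 and 7. No model strand is given, so exons, introns and untranslated regions were not assigned.

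Both genes had more footprints for their RNA than most models. Levels are FPKM, mapped fragments scaled to model length and library size, as the authors deposited them. aldoc had 504 and 920 FPKM in Ribo-seq replicates 1 and 2, against 238 and 244 FPKM in RNA-seq replicates 1 and 2. Both Ribo-seq libraries lay above both RNA-seq libraries, and the higher Ribo-seq value was 1.82 times the lower one, while the RNA-seq values lay close together. cnp had 17.0 and 29.1 FPKM in Ribo-seq, against 9.54 and 9.54 FPKM in RNA-seq. Here too the assays did not overlap, and Ribo-seq replicate 2 was again the higher library, by 1.71 times. For both genes the assays stayed apart after the scaling below. On that scale, both Ribo-seq values lay above both RNA-seq values for 36.6% of all tested models and 73.3% of those with a RefSeq symbol. The share in deposited FPKM was not counted. As means, aldoc had 712 ± 294 FPKM in Ribo-seq and 241 ± 4.22 FPKM in RNA-seq (SD, n = 2 each), and cnp had 23.05 ± 8.52 FPKM in Ribo-seq and 9.54 ± 0.00202 FPKM in RNA-seq (SD, n = 2 each).

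Much of the gap between the Ribo-seq libraries was shared by other models. Each library was divided by a median ratio over models above 0 in every library, a factor of 0.651 and 0.925 for Ribo-seq and 1.398 and 1.32 for RNA-seq. After this scaling aldoc had 775 and 994 FPKM in Ribo-seq, against 170 and 185 FPKM in RNA-seq, and the ratio of replicate 2 to replicate 1 in Ribo-seq was 1.28. Scaled cnp had 26.2 and 31.4 FPKM in Ribo-seq, against 6.82 and 7.23 FPKM in RNA-seq, with a ratio of 1.201 between the Ribo-seq replicates. The ratio of the scaled means, Ribo-seq over RNA-seq, was 4.99 for aldoc and 4.10 for cnp, while that of the deposited means was 2.96 and 2.42.

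**Figure D1:**
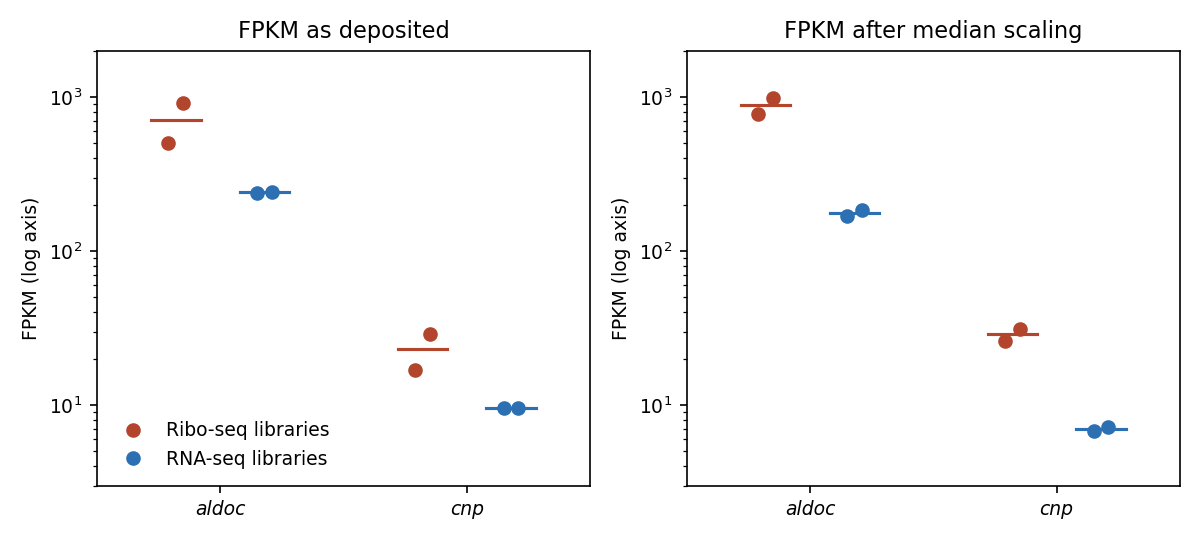
FPKM (log axis) of aldoc and cnp in each library, as deposited on the left and after median scaling on the right. Points are the 2 Ribo-seq and the 2 RNA-seq libraries, bars their means; for both genes each Ribo-seq point lies above both RNA-seq points, and scaling brings the Ribo-seq points of aldoc to 775 and 994 FPKM.

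Both differences passed the test across the table. The log2 difference, Ribo-seq minus RNA-seq on the scale log2(scaled FPKM + 1), was 2.30 ± 0.19 for aldoc (SE, limma, Benjamini-Hochberg adjusted p = 0.0039) and 1.89 ± 0.16 for cnp (SE, limma, adjusted p = 0.0039). Of the 50625 models tested, 23.9% were called higher in Ribo-seq and 33.7% lower, and of the 5705 with a RefSeq symbol 52.4% were called higher and 6.01% lower. A call in this direction is therefore common among named genes. The median log2 difference was 0.76 over tested models with a symbol and -0.20 over all tested models. aldoc lay 1.54 and cnp 1.12 above the median of the models with a symbol, higher than 97.1% and 91.3% of them. With FPKM as deposited, which lowered that median to 0.13, the log2 difference was 1.497 for aldoc (limma, adjusted p = 0.036), and for cnp it was 1.14 and missed the threshold (limma, adjusted p = 0.061). In that setting 4.79% of all tested models were called higher and 41.8% lower, and of those with a symbol 8.38% were called higher and 10.9% lower. Relative to the symbol-bearing models the genes then stood 1.37 and 1.02 above the median.

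The calls also rest on having both RNA-seq libraries. Without RNA-seq replicate 1, the adjusted p was 0.11 for aldoc and 0.073 for cnp (limma), at log2 differences of 2.23 and 1.83. Without RNA-seq replicate 2 it was 0.11 and 0.071, at 2.34 and 1.90. The direction stayed the same in each case.

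In order of level, aldoc was among the most abundant named transcripts in both assays. It ranked 5 and 4 of the 7241 symbol-bearing models in Ribo-seq replicates 1 and 2, and 9 and 7 in RNA-seq replicates 1 and 2. Among all models, named or not, its rank was 66 and 51 in Ribo-seq and 96 and 87 in RNA-seq. cnp was a transcript of moderate level, at rank 884 and 847 of the symbol-bearing models in Ribo-seq, against 1583 and 1652 in RNA-seq. Its rank was thus higher in both Ribo-seq libraries than in either RNA-seq library, among all models too, at 5195 and 4849 in Ribo-seq against 15065 and 14479 in RNA-seq.

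The linear ratio of aldoc to cnp within a library does not depend on the scaling between libraries. aldoc was 29.6 and 31.6 times as high as cnp, per length, in the Ribo-seq libraries, and 24.9 and 25.6 times as high in the RNA-seq libraries. Both Ribo-seq ratios lay above both RNA-seq ratios. On the scale log2(FPKM + 1), where the pseudocount leaves some dependence on scaling, the mean ratio was 4.87 in Ribo-seq and 4.52 in RNA-seq. This is a difference of 0.35, against gaps of 0.13 between the Ribo-seq replicates and 0.036 between the RNA-seq replicates. With a pseudocount of 0.1 the difference was 0.29. An exact two-sided permutation test over the libraries gave p = 0.33, which is the smallest that 2 libraries against 2 can give. The difference is therefore not shown to exceed chance by this test.

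Part of the aldoc locus was carried by a nested model. Model MEDAKA076141 (438 nt, chromosome 14, 12618410 to 12620519) lies wholly within the span of aldoc and carries no symbol. It had 1668 and 2555 FPKM in Ribo-seq, against 550 and 488 FPKM in RNA-seq, so that it stood above the aldoc model in all 4 libraries. Footprints exceeded RNA by 2.80 ± 0.16 on the log2 scale (SE, limma, adjusted p = 0.0039). Without RNA-seq replicate 1 or 2 the difference was 2.83 or 2.74 and no longer called (adjusted p = 0.20 and 0.23). Per length it was 3.31 and 2.78 times the aldoc model in Ribo-seq, and 2.31 and 2.004 times in RNA-seq. As a share of FPKM times length over the overlapping models, a rough stand-in for their share of fragments, the aldoc model held 63.4% and 67.4% in Ribo-seq, against 70.8% and 73.9% in RNA-seq. How the authors divided fragments between overlapping models is not given in the sources used here, so the values of the 2 models may not be independent.

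The other overlapping model moved in the opposite direction. MEDAKA076134 (207 nt, chromosome 14, 12621158 to 12626198) reaches past the higher-coordinate end of aldoc, into the stretch of the RefSeq gene that the aldoc model leaves out. It was listed at 0 in Ribo-seq replicate 1 and had 2.205 FPKM in Ribo-seq replicate 2, against 24.3 and 10.1 FPKM in RNA-seq. The log2 difference of this model was -2.78 ± 0.77 (SE, limma, adjusted p = 0.043). The call held in 5 of 11 alternative settings and was lost in 6, with adjusted p up to 0.31. It held at most 0.595% of FPKM times length in any library. With all 3 models summed by FPKM times length, a setting chosen after the values were seen, the log2 difference of the locus was 2.45 (limma, adjusted p = 0.0039), against 2.30 for the aldoc model alone.

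**Figure D2:**
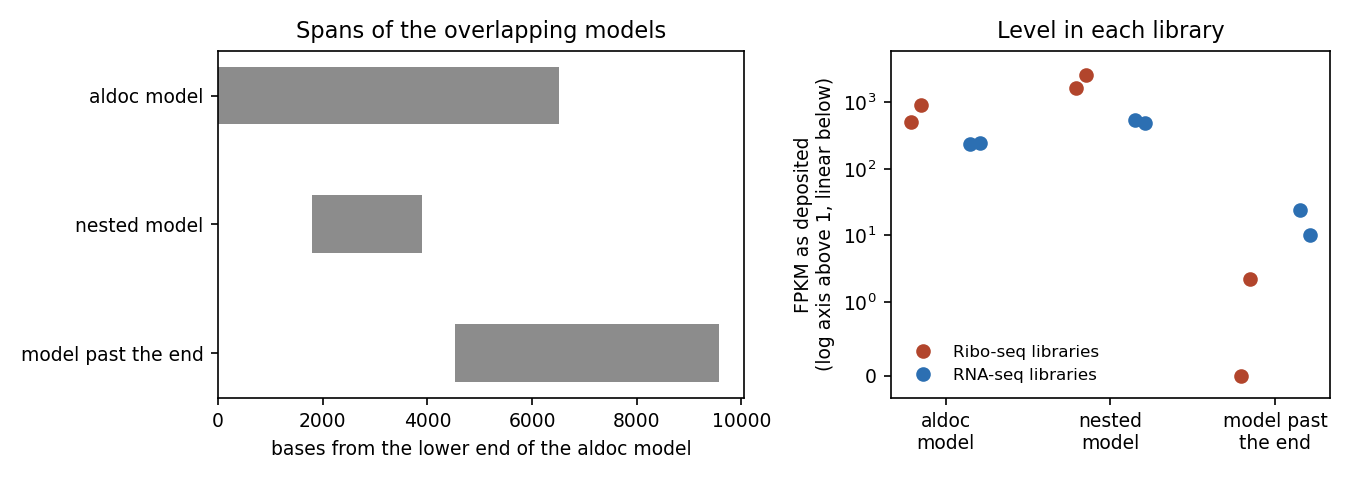
Left, spans of the aldoc model and the models that overlap it, in bases from the lower-coordinate end of the aldoc model. Right, their FPKM as deposited in the 2 Ribo-seq and the 2 RNA-seq libraries, on a log axis above 1 and a linear one below; the nested model is above the aldoc model in each library, and the third model is at 0 and 2.205 FPKM in Ribo-seq.

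Neighbouring transcripts of the same loci gave values of both sizes. Next to cnp, dnajc7, a co-chaperone gene, had 20.3 and 37.9 FPKM in Ribo-seq and 24.99 and 26.5 FPKM in RNA-seq, with a log2 difference of 0.88 (limma, adjusted p = 0.024). nkiras2, a regulator of NF-kappa-B signalling, had a log2 difference of 1.58 (adjusted p = 0.0057). klhl11, on the other side, had one of 0.64 (limma, adjusted p = 0.054, above the threshold). MEDAKA012809, an unnamed model of 285 nt on the klhl11 side, had a larger one than cnp, 2.11 (limma, adjusted p = 0.029). MEDAKA012804, an unnamed model of 4375 nt on that side and the tested model nearest to cnp, had one of 1.67 (limma, adjusted p = 0.0075). On the other side, the unnamed MEDAKA012810 and MEDAKA012807 had 1.14 and 0.27 and were not called (limma, adjusted p = 0.059 and 0.27). The differences between neighbours were not tested. Within 25000 bases of aldoc, heatr6 was the only tested model with a symbol, with 0.484 and 1.23 FPKM in Ribo-seq, 2.63 and 2.70 FPKM in RNA-seq and a log2 difference of -0.56 (limma, adjusted p = 0.10). Among the unnamed models there that do not overlap aldoc, MEDAKA076121, MEDAKA076123 and MEDAKA076120 were called higher in Ribo-seq, with differences of 1.66, 1.82 and 1.75. The others, MEDAKA076135, MEDAKA076138 and MEDAKA076140, were not called, at 0.73, -0.87 and 1.38 (limma, adjusted p = 0.13, 0.14 and 0.054). Over all tested models, 23.9% were called higher.

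Set against models of similar RNA-seq level, cnp lay higher in the distribution than aldoc did. Similar means a mean scaled log2 RNA-seq level within 0.25 of that of the gene, and the percentiles that follow are descriptions, with no test. For cnp there were 6058 such models, with a median of 5.29 FPKM in Ribo-seq, against 23.05 FPKM for cnp, and its log2 difference was larger than that of 94.3% of them. Their median log2 difference was -0.08. Among the 761 with a RefSeq symbol, which had a median of 0.88, cnp exceeded 89.5%. Its Ribo-seq FPKM was above 93.4% of the 6058 models in replicate 1 and above 94.2% in replicate 2, so both libraries placed it alike. It exceeded 93.1% of models with 0.5 to 2 times its length, and 94.7% of models that overlap no other. Of all 6058 models, 28.1% were called higher in Ribo-seq and 32.5% lower; of the 761 with a symbol, 61.0% were called higher and 6.04% lower.

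aldoc had few peers at its RNA level, and several of them had as many footprints. Of the 70 models with similar RNA-seq level, 71.4% had a smaller log2 difference, and 20 had a larger one. Their median was 310 FPKM in Ribo-seq, against 712 FPKM for aldoc, and 1.25 as a log2 difference. In Ribo-seq FPKM, aldoc was above 74.3% of them in replicate 1 and above 81.4% in replicate 2. Among the 15 with a symbol, whose median log2 difference was 1.64, it exceeded 73.3%. Only 12 of the 70 had 0.5 to 2 times its length. All 12 were called higher in Ribo-seq, their median log2 difference was 1.996, and aldoc exceeded 58.3% of them. Of all 70, 55.7% were called higher and 24.3% lower, and of the 15 with a symbol 66.7% were called higher and 0% lower. The models of similar level were mostly short, with a median length of 304.5 nt, against 2513 nt for aldoc.

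**Figure D3:**
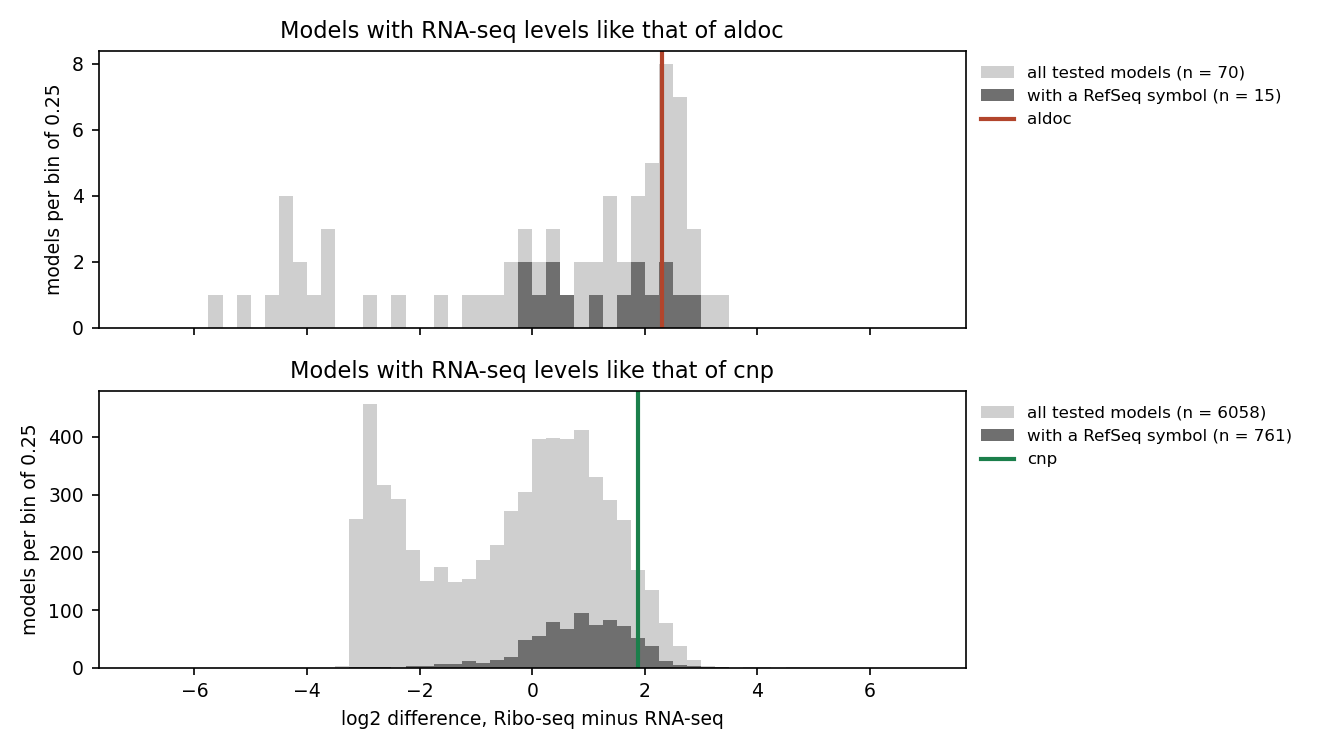
Log2 differences, Ribo-seq minus RNA-seq, of the models whose mean RNA-seq level lies within 0.25 (log2) of aldoc (top, 70 models, 15 with a RefSeq symbol) and of cnp (bottom, 6058 models, 761 with a symbol), as models per bin of 0.25. The coloured line is the gene itself, at 2.30 among the main group of aldoc's peers and at 1.89 in the upper tail of those of cnp.

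The scatter between replicates lay near that of comparable models for both genes. The residual SD of the fit, on the log2 scale, was 0.189 for aldoc, against a median of 0.163 for the 15 symbol-bearing models of similar RNA level, and 0.133 for cnp, against a median of 0.142 for its 761. Over all models of similar RNA level, named or not, the medians were 0.192 and 0.220. Between the Ribo-seq libraries, after scaling, replicate 2 was above replicate 1 by 0.36 (log2) for aldoc and by 0.26 for cnp, against lower medians of 0.18 and 0.17 among the symbol-bearing models of similar RNA level.

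The named transcripts with the most similar values included 1 member of the glial lists, s100b. Likeness was the Euclidean distance over the 4 libraries in log2(scaled FPKM + 1), among the tested models with a symbol. The 5 nearest to aldoc were hsc70, a chaperone gene, at 0.14, pomc, the precursor of corticotropin and melanocyte-stimulating hormone, at 0.19, ywhag, a signalling adaptor, at 0.32, s100b, a calcium-binding protein of glia, at 0.44, and calm2, a calmodulin gene, at 0.54. hsc70 had 491 and 896 FPKM in Ribo-seq and 218 and 239 FPKM in RNA-seq. Nearest to cnp were gal, the galanin precursor, at 0.085, xrn2, an exoribonuclease, at 0.092, psme2, a proteasome activator subunit, at 0.14, dlx5, a homeobox gene, at 0.15, and ssrp1, a chromatin factor, at 0.18. gal had 16.7 and 30.4 FPKM in Ribo-seq and 9.26 and 9.27 FPKM in RNA-seq.

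Likeness in RNA level alone left room for a wide range of footprints. The 3 symbol-bearing models closest to cnp by RNA level were phf3, with 4.62 and 8.98 FPKM in Ribo-seq and a log2 difference of 0.21 (limma, adjusted p = 0.43, not called), ssr4, a subunit of the translocon-associated complex, with 19.3 and 34.3 FPKM in Ribo-seq and a difference of 2.09, and lrrfip2, with 1.90 and 1.72 FPKM in Ribo-seq and a difference of -1.26 (limma, adjusted p = 0.022). For aldoc they were pomc, hsp90ab1, a chaperone, and cga, the shared subunit of pituitary glycoprotein hormones, with log2 differences of 2.23, 1.83 and 2.95.

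Other markers of radial glia and astrocytes were mostly higher in Ribo-seq as well. The list was written with earlier results of these data known. RefSeq holds 15 of its symbols, of which 10 were matched to a model and 7 were tested, aldoc among them. Of the 6 tested besides aldoc, 5 were called higher and 0 lower, 83.3% against the 52.4% of all symbol-bearing models. Their median log2 difference was 1.48, against 0.76. With FPKM as deposited 1 of these 6, sox2, was called higher, a setting in which 8.38% of symbol-bearing models were. Of the whole list, aldoc included, fewer members were called without RNA-seq replicate 1 or 2, as was so over all tested models. s100b had 395 and 942 FPKM in Ribo-seq and 203 and 223 FPKM in RNA-seq, a log2 difference of 2.32 ± 0.31 (SE). sox2, a transcription factor of neural progenitors and radial glia, had 58.7 and 91.6 FPKM in Ribo-seq and 30.2 and 31.1 FPKM in RNA-seq. In deposited FPKM both Ribo-seq values of sox2 lay above both RNA-seq values. That order held for 73.3% of symbol-bearing models after scaling, and was not counted without it. The log2 difference of sox2 was 2.02 ± 0.14 (SE).

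glul, the glutamine synthetase of glia, was the one tested member above aldoc in RNA. It had 371 and 598 FPKM in Ribo-seq and 254 and 273 FPKM in RNA-seq, and its log2 difference was 1.64 (limma, adjusted p = 0.0043). The mean RNA-seq order was thus glul, aldoc and s100b, and the mean Ribo-seq order aldoc, s100b and glul. In deposited Ribo-seq FPKM the ranges of aldoc, s100b and glul overlapped across replicates. Within each Ribo-seq library, though, aldoc and s100b lay above glul, while aldoc and s100b changed order between the libraries. In RNA-seq both values of glul lay above those of aldoc, and both of aldoc above those of s100b. vim, which encodes the intermediate filament vimentin, had a log2 difference of 1.32, and kcnj10, a glial potassium channel gene, one of 1.18. slc1a2, a glutamate transporter of astrocytes, had 8.76 and 19.7 FPKM in Ribo-seq and 12.2 and 12.8 FPKM in RNA-seq, and its difference of 0.81 was not called (limma, adjusted p = 0.066). The slc1a2 model was 600 nt long, on chromosome 6 from 22931681 to 22950770, and need not carry all expression of the gene.

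Against symbol-bearing models of their own RNA level, the glial markers were spread. The log2 difference exceeded that of 81.3% of such models for s100b, 74.7% for sox2, 73.3% for aldoc, 62.1% for vim, 38.2% for slc1a2, 33.7% for kcnj10 and 25% for glul, which had 8 such models. slc1a3, sparcl1 and gpm6b, the matched members below the mean of 1 FPKM needed for the test, had 1.62 FPKM as their highest value in any library. No model was matched to fabp7, aqp4, sox9, cspg5 and slc6a11, which are not analysed here.

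In the oligodendrocyte and myelin list cnp had the largest log2 difference. RefSeq holds 18 of its symbols. A model was matched to 8 and 7 were tested, of which 3 were called higher, 0 lower and 4 neither. Of the 6 besides cnp, 2 were called higher, 33.3% against 52.4% of all symbol-bearing models, and their median log2 difference was 0.41, against 0.76. With FPKM as deposited 0 of the 7 were called by limma and 1 had an unadjusted p below 0.05, in a setting where 8.38% of symbol-bearing models were called higher. The list's calls also fell without RNA-seq replicate 1 or 2 and rose without Ribo-seq replicate 1, as did higher calls over all tested models. mag, a myelin adhesion protein at the contact of glia and axon, had 27.8 and 51.7 FPKM in Ribo-seq and 23.3 and 25.1 FPKM in RNA-seq, with a log2 difference of 1.41 ± 0.20 (SE, limma, adjusted p = 0.0079). pdgfra, a receptor of oligodendrocyte precursors, had 6.48 and 12.3 FPKM in Ribo-seq and 7.95 and 8.37 FPKM in RNA-seq, with a difference of 0.84. In deposited FPKM the assays of pdgfra overlapped, while those of mag did not. How many models stay apart in deposited FPKM was not counted.

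The other 4 tested members of the myelin list were not called. sox10, a transcription factor of the oligodendrocyte lineage, had 0.830 and 1.09 FPKM in Ribo-seq and 1.29 and 1.81 FPKM in RNA-seq, and a log2 difference of 0.06. myrf, the myelin regulatory factor, had 1.89 and 4.82 FPKM in Ribo-seq and 3.57 and 4.41 FPKM in RNA-seq, a difference of 0.33, and nkx6-2 one of 0.49. cldn19, a claudin gene, had 4.32 and 7.37 FPKM in Ribo-seq and 9.89 and 9.96 FPKM in RNA-seq, a difference of -0.01. The adjusted p was 0.80, 0.42, 0.16 and 0.98 in the order sox10, myrf, nkx6-2 and cldn19 (limma). At the low levels of sox10, myrf and nkx6-2 the pseudocount understates a difference. For all 4, a missed threshold does not show equal levels. In deposited FPKM the differences of sox10, myrf and nkx6-2 turned negative, at -0.37, -0.28 and -0.01. That of cldn19 was the most negative of the 4, at -0.71, with both Ribo-seq values below both RNA-seq values. How many models share that order was not counted.

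Levels of the myelin list kept a similar order in both assays. By mean RNA-seq FPKM the order was mag, cldn19, cnp, pdgfra, myrf, nkx6-2 and sox10, and by mean Ribo-seq FPKM mag, cnp, pdgfra, cldn19, myrf, nkx6-2 and sox10. In deposited FPKM the Ribo-seq ranges of mag and cnp overlapped across replicates, as did those of pdgfra and cldn19. Within each Ribo-seq library, though, mag lay above cnp and pdgfra above cldn19. Among symbol-bearing models of their own RNA level, cnp exceeded 89.5% in log2 difference, mag 53.7%, nkx6-2 53.1%, pdgfra 49.7%, myrf 34.8%, sox10 23.0% and cldn19 15.3%. No model was matched to mbp, mpz, olig1, olig2, cldn11, ugt8, fa2h, pllp, gpr17 and cspg4, which are not analysed here.

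**Figure D4:**
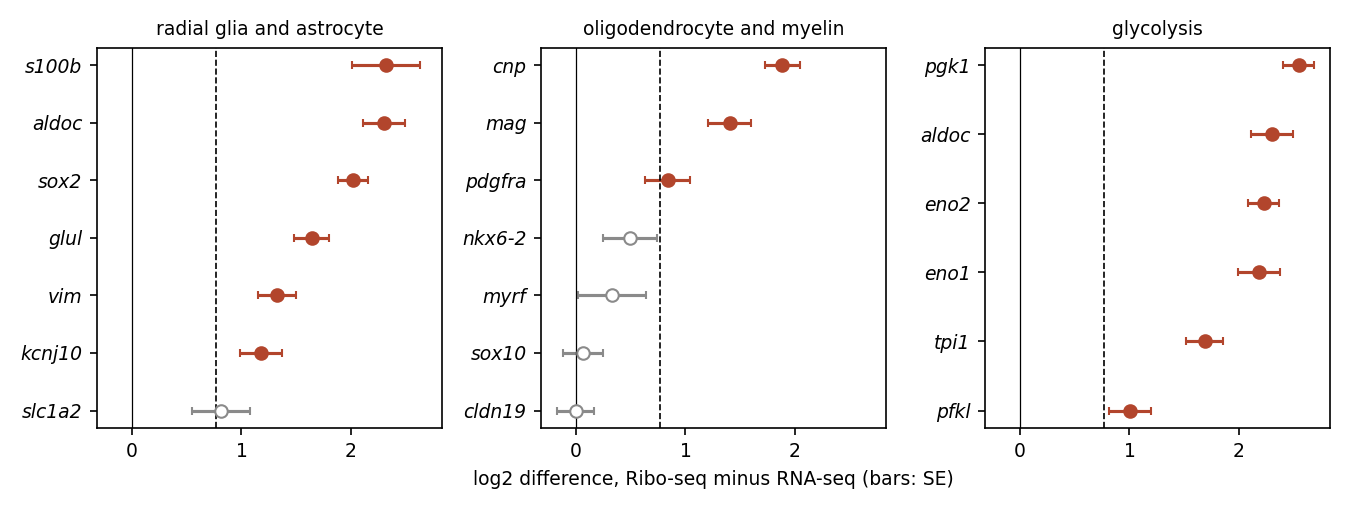
Log2 difference, Ribo-seq minus RNA-seq, with SE bars, of the tested members of the radial glia and astrocyte, oligodendrocyte and myelin, and glycolysis lists. Filled points passed the test (limma, adjusted p below 0.05), open ones did not, and the dashed line is the median of 0.76 over tested models with a symbol; 6 of 7, 3 of 7 and 6 of 6 points are filled.

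The other steps of glycolysis that could be tested were called higher in Ribo-seq too. RefSeq holds 10 list members, 9 of them matched to a model and 6 tested, aldoc among them. All 5 besides aldoc were called higher, against 52.4% of symbol-bearing models, with a median log2 difference of 2.19, against 0.76. With FPKM as deposited 2 of the 5, pgk1 and eno2, were called higher and 0 lower, against 8.38% of symbol-bearing models called higher. Fewer members of the whole list were called without RNA-seq replicate 1 or 2, as over all tested models. pgk1, phosphoglycerate kinase, had 141 and 229 FPKM in Ribo-seq and 52.4 and 52.8 FPKM in RNA-seq, and the largest log2 difference of the list, 2.55 ± 0.14 (SE). eno1 and eno2, enolases of which eno2 is the neuronal form in mammals, had differences of 2.19 and 2.23. tpi1, the triose phosphate isomerase that follows aldolase, had 159 and 271 FPKM in Ribo-seq and 108 and 116 FPKM in RNA-seq, a difference of 1.69. pfkl, a phosphofructokinase of the step before aldolase, had 3.90 and 7.006 FPKM in Ribo-seq and 4.005 and 3.75 FPKM in RNA-seq, a difference of 1.01. Among symbol-bearing models of their own RNA level, pgk1 exceeded 92.6% in log2 difference, eno1 85.3%, eno2 83.3%, aldoc 73.3%, pfkl 69.8% and tpi1 57.1%.

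aldoc was the highest of the tested glycolysis genes per length in every library. Both of its values lay above those of eno1, the next in order, which had 216 and 405 FPKM in Ribo-seq and 113 and 112 FPKM in RNA-seq. The only other aldolase gene matched, aldoa, the muscle form in mammals, had 1.297 and 0.566 FPKM in Ribo-seq and 0.751 and 0.369 FPKM in RNA-seq and was not tested. The matched model of gapdh was also below 1 FPKM in each library, at 0.516 and 0.130 FPKM in Ribo-seq and 0.0263 and 0.147 FPKM in RNA-seq, and so was that of gpi. MEDAKA024045, which overlaps the gapdh model, was low too, at 0.192 and 0.346 FPKM in Ribo-seq and 0.269 and 0.463 FPKM in RNA-seq. The cause of the low gapdh values was not tested. A matched model need not carry all expression of the gene that it is named for, and the low aldoa values bear the same limit.

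Markers of neurons were mostly higher in Ribo-seq too, and those of microglia and endothelium in part. The median log2 difference was 1.29 for neurons, 0.92 for microglia and 0.01 for endothelium, against 0.76 for all symbol-bearing models. Of the tested members, 6 of 7 for neurons were called higher and 0 lower, 2 of 3 for microglia higher and 0 lower, and 2 of 4 for endothelium higher and 2 lower, where 52.4% of all symbol-bearing models were called higher and 6.01% lower. Without scaling of the deposited FPKM, 1 member of each of these lists was called higher, and 0, 0 and 2 lower, against 8.38% and 10.9% of symbol-bearing models. snap25, the highest neuronal member, had a log2 difference of 3.27, while elavl3, an RNA-binding protein of neurons, had one of -0.13 that was not called. Among microglial markers the difference was 2.56 for cd74 and 0.57, not called, for ptprc. Among endothelial ones it was 2.25 for cldn5 and 0.78 for tie1, and -0.76 for esam and -1.15 for egfl7, both called lower. The models of snap25, cldn5 and esam were short, at 628, 571 and 591 nt, and need not carry all expression of their genes.

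Single genes carried much of the summed levels of these lists. The sums are of FPKM as deposited, without scaling. The calls and log2 differences above rest on scaled values, where Ribo-seq levels are raised and RNA-seq levels lowered. The sums therefore do not show how much of a scaled difference is left without the top gene. The summed FPKM was 1800 and 2915 for neurons in Ribo-seq, against 630 and 666 in RNA-seq. Without snap25 it was 260 and 446 in Ribo-seq, against 279 and 311 in RNA-seq. For microglia the sum was 107 and 201 in Ribo-seq, against 44.5 and 44.5 in RNA-seq, and without cd74 it was 3.44 and 4.52, against 3.31 and 2.98. For endothelium it was 40.0 and 62.0 in Ribo-seq, against 29.4 and 27.7 in RNA-seq, and without cldn5 4.36 and 4.77, against 13.2 and 12.6. The radial glia and astrocyte list summed to 1379 and 2647 in Ribo-seq, against 776 and 825 in RNA-seq. Without glul, its highest member in RNA-seq, the sum was 1008 and 2049, against 522 and 552. The myelin list summed to 59.5 and 109 in Ribo-seq, against 57.6 and 61.0 in RNA-seq. Without mag the sum was 31.7 and 57.4, against 34.3 and 35.8. No tested member of these lists was listed at 0 in any library. The part of these other cells in the values of aldoc and cnp was not tested.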

How the data were processed

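Ribo-seq and RNA-seq were compared in 2 libraries each of 1 tissue and condition, grouped by title. The deposited values are FPKM per transcript model, 1 column for each library, per the file headers; a TruSeq Ribo Profile kit was used, per the labels' protocols. TopHat2 2.1.0 and Cufflinks 2.2.1 are named, without roles, in the submitters' processing notes. Genome build, annotation, strand and the length used for footprints are not given in these sources; a difference between assays then also holds any difference in that length. Depth is unknown: among low values of models of 1 length, between 40.5% and 65.6% were whole multiples of the smallest within 0.05 of its size, so reads were not recovered and no counting error is given. Lengths are those deposited.

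Models took names from the RefSeq table of assembly ASM223467v1 where both spans overlapped by at least 50% (17796 models matched, 7241 given a symbol, 1 model for each gene). The build was inferred: 2137 model ends lay within 10 bp of a protein-coding gene end, against 60.0 after a 20 kb shift. File starts count from 0 and were raised by 1. Of all models, 71.6% overlap another in genomic span. Without exons and strand it cannot be told which of them share reads.

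Libraries were scaled by median ratios, models with a mean of at least 1 FPKM kept, and log2(scaled FPKM + 1) fitted with limma 3.58.1 (R 4.3.3, eBayes with trend, assay as the single term), with Benjamini-Hochberg adjustment over all tested models and calls below 0.05. The pseudocount understates differences of low models. The fit was run on simulated data with few changed models, in equal numbers up and down. The real table had far more calls, so that run cannot test the scaling used here. The rest used Python 3.11.15 with scipy 1.17.1, pandas 2.3.3 and numpy 2.4.6.

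Named were the members, the models overlapping them, tested neighbours within 25000 bases and the tested members of the glial lists. Of glycolysis, aldolases and the 6 other genes highest in RNA-seq were named (5 were tested). The top member of each other marker list was named, with the nearest 5 models by all libraries and 3 by RNA level. The neighbours, gapdh, gpi and untested list members were named after their values were seen. So were elavl3, ptprc, tie1, esam and egfl7, which are not the top members of their lists. The members and lists were chosen with earlier results of these data known.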

Additional observations from a re-analysis of the deposited data

How the results depend on the processing

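The directions of the log2 differences of aldoc and cnp held in every alternative run. aldoc kept its call with upper quartile scaling, with a pseudocount of 0.1, with no filter, at a minimum mean of 5 FPKM, without the trend, with FPKM as deposited and without either Ribo-seq library. So did cnp, except with FPKM as deposited, where it was 1.14 and not called. With FPKM as deposited, calls of higher members came to 2 in the radial glia and astrocyte list (6 in the report), 0 in the myelin list (3) and 3 in the glycolysis list (6), and to 2425 over all models (12116). Calls of lower models numbered 29544 with no filter, which tests more models and adds 1 lower member, gpm6b, to the glial list, and 4477 at a minimum mean of 5 FPKM, which tests fewer (17048 in the report). aldoc exceeded 58.3% of the models of similar RNA-seq level and length, against 71.4% of all of similar level. The cause of this was not tested. Leaving out 1 library moved aldoc between 2.23 and 2.68 and cnp between 1.83 and 2.22, and the difference in the ratio of aldoc to cnp between 0.29 and 0.42. Scaling factors were computed anew from the libraries kept, so the ranges of aldoc and cnp also hold that change. Higher calls then ranged from 1 to 7 in the glial list, from 0 to 5 in the myelin list, from 2 to 6 in the glycolysis list and from 961 to 16431 over all models, and lower calls over all models from 6004 to 19814; the lowest counts came without RNA-seq replicate 1 or 2. The fit then has 1 library in 1 assay, which is assumed to vary like the other; the calls lost without either RNA-seq library had no tested cause. With the replicate number as a block, the log2 differences were 2.30 and 1.89 (limma, adjusted p = 0.014 for each), and no call of aldoc or cnp changed. Same-numbered libraries deviated together by r = 0.068 across all tested models. That value cannot decide whether same-numbered libraries share fish, and the numbers were not used as pairs in the main fit.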
